A study of Danio rerio with 2 samples.

Results

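Skeletal myosin heavy chain genes encode the motor protein of the thick filament in body-wall and head muscle, and 10 zebrafish genes of this kind were chosen by name. Gene names from a table of Ensembl IDs, read without regard to case, placed 9 of the 10 among the 26597 genes of the series' expression table. The fast-fibre genes were myhz1.1, myhz1.2, myhz1.3, myhz2, myhc4, myha and myhb, and the slow-fibre genes were smyhc1 and smyhc2. The names table paired no ID with smyhc3, which is not analysed here under that name. The RefSeq table lists smyhc3 as a gene and also as another name of myh7, so whether the gene named MYH7, counted below among the heart chains, is this slow copy is not known. RNA-seq was available for 1 wild-type library (labelled WT) and 1 library of the salvianolate-treated group, and the labels describe each as total RNA of zebrafish cardiac tissue. Salvianolate is a plant extract rich in salvianolic acids, made from Salvia miltiorrhiza (danshen). Strain, age, dose, duration and number of animals are not given in the labels, and the title of the treated library speaks of embryos. The genotype entries of the labels read WT and salvianolate-treated, so the genotype of the treated library is not stated. Each group is 1 library, so no difference below has a replicate check, no test between conditions was possible, and every interval covers counting error only.

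Fast and slow fibres of fish muscle lie in separate layers and use different myosin heavy chains, whose motor properties set how quickly a fibre shortens. In the zebrafish embryo the superficial slow fibres form first and are marked by smyhc1, while smyhc2 and smyhc3 come on later in fewer fibres. Fast fibres make up the bulk of the trunk muscle and draw on a tandem group of fast genes. The hearts of fish use other heavy chains, such as those of the atrium and the ventricle. In the RefSeq table of assembly GRCz12tu, myhz2, myhc4, myha, myhz1.3, myhz1.2 and myhz1.1 follow each other in this order with 0 other annotated genes between them. The slow genes smyhc1, smyhc2 and smyhc3 likewise stand next to each other on another chromosome, and myhb lies apart from both groups.

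The libraries held 19531799 and 19295542 rounded counts in wild type and treated. The labelled tissue was checked against heart and skeletal muscle markers. Defining heart genes were present at low levels: MYL7, the regulatory light chain of heart muscle, stood at 18.3 FPKM in wild type and 14.65 FPKM in the treated library. The actin gene actc1b, used in skeletal muscle, stood at 9267 and 10064 FPKM. No cardiomyocyte marker gene of 17 was at 0 in wild type and 1 was in treated, a gene named TNNI1 (ENSDARG00000000474). That gene had 1 count in wild type, so no difference can be read from it. Per length, the summed level of these 17 genes was 93.2 FPKM (wild type) and 86.3 FPKM (treated), against 32202 and 37777 FPKM for 19 skeletal muscle marker genes. Of 14 cardiomyocyte marker names 12 were matched to IDs, and nothing entered the heart sum under the names vmhc and nkx2.5. Whether either gene entered it under another symbol is not known. Of 15 skeletal muscle marker names 13 were matched, without mylpfa and mylpfb. Among the matched genes, the skeletal muscle markers far exceeded the heart markers in both libraries. In such bulk RNA, fewer cells of a type and less RNA per cell cannot be told apart. The series' design text counts 109 genes up and 565 down in the treated group. By a fold of at least 2 with an interval excluding 1, the table gave the reverse order, 532 genes higher and 143 lower in the library labelled treated. The counts of the design text may rest on a different rule, so the numbers themselves are not comparable. Without a fold limit the split was even, with intervals of 3459 genes above a ratio of 1 and 3440 below. The labels of the libraries, or the direction in the text, may be exchanged, which these data cannot settle. Every direction, rank and share below follows the library labels, and with exchanged labels each log2 ratio would change sign and each pair of values would swap.

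Together the 9 genes took 0.786% of the counts in wild type and 1.01% in the treated library. Their summed level, in counts scaled to library size with TMM factors (CPM), was 8030 in wild type and 9856 in treated, a fold of 1.23 (95% counting interval 1.22 to 1.24). Of the 9 genes, 7 had a counting interval wholly above a ratio of 1, 0 had one below, and for 2, smyhc1 and myha, it included 1. Over the 19829 genes that reached 1 CPM in either library, 17.4% had an interval above 1 and 17.3% one below. Counting intervals narrow with depth, so more abundant genes were also set beside the members. Among 1649 genes that reached 100 CPM in either library, 20.4% had an interval above 1 and 53.6% one below, with a median log2 ratio of -0.08. Of the 5 members above that limit, 4 had an interval above 1. These 5 stood at 402 to 4681 CPM, and the 4 myhz genes ranked between 12th and 116th of all genes. The set is therefore not matched to them in depth. Of 6310 genes with 20 to 100 CPM in the higher library, 1196 had an interval above 1 and 1498 one below. All 3 members in that band had one above. The differences were small: at a fold of at least 2 with an interval excluding 1, only myhb of the 9 genes was counted as higher and 0 were counted as lower. The background by that rule was 2.68% higher and 0.721% lower. At a fold of 1.5 the member counts were again 1 and 0, beside 6.07% and 2.64% of all genes.

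**Figure D1:**
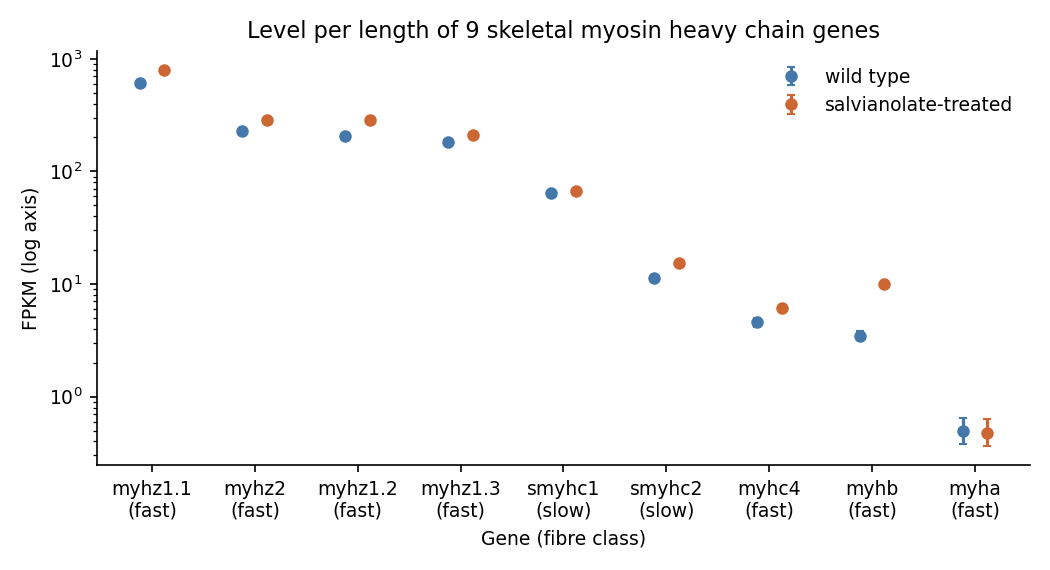
Level per gene length (FPKM, log axis) of the 9 genes in the wild-type (blue) and treated (orange) library, ordered by the wild-type level, with 95% Poisson counting intervals that are mostly smaller than the points. The 4 myhz genes lie between 183 and 797 FPKM, above both slow genes, and myhc4, myhb and myha lie lowest.

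Levels between genes were compared per length, in the authors' FPKM. In wild type myhz1.1 was the most abundant at 610 FPKM, followed by myhz2 at 227, myhz1.2 at 204 and myhz1.3 at 183. The slow genes followed, smyhc1 at 64.1 FPKM and smyhc2 at 11.4. The least abundant were myhc4 at 4.56, myhb at 3.48 and myha at 0.50 FPKM. No Poisson intervals of neighbours in this order overlapped in wild type. In the treated library the order was the same except that myhb, at 10.1 FPKM, stood above myhc4 at 6.08 FPKM. There myhz2 and myhz1.2, at 288 and 285 FPKM, had overlapping intervals (285 to 291 and 282 to 288) and could not be told apart at this depth. The plot of levels by gene shows a span of about 3 orders of magnitude within the family.

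Among the most abundant fast genes all 4 stood higher in the treated library, by unequal amounts. The gene myhz1.1 (ENSDARG00000067990) measured 3745 CPM (wild type) and 4681 CPM (treated). Its log2 ratio was 0.32 (0.31 to 0.34), and it ranked 24th of all genes by CPM in wild type and 12th in treated. The gene myhz1.2 (ENSDARG00000067995) measured 1257 CPM (wild type) and 1679 CPM (treated), giving a log2 ratio of 0.42 (0.39 to 0.44). It had the highest ratio of the 4 myhz genes, and 2.97% of the genes with at least 100 CPM had a higher one. Its neighbour myhz1.3 (ENSDARG00000067997) measured 1117 CPM (wild type) and 1222 CPM (treated), giving a log2 ratio of 0.13 (0.10 to 0.16), the lowest of the 4. Of the genes with at least 100 CPM, 14.5% had a higher ratio than myhz1.3. The gene myhz2 (ENSDARG00000012944) measured 1388 CPM (wild type) and 1686 CPM (treated), giving a log2 ratio of 0.28 (0.26 to 0.30). Intervals of these 4 genes did not overlap each other, although the upper end for myhz2 and the lower end for myhz1.1 came close, at 0.304 and 0.308.

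Tandem heavy chain genes are known to be alike in sequence, and reads shared between them may have been split by the authors' estimation. Estimated counts of 8 of the 9 genes were not whole numbers in either library, while those of myhb, 408 and 1167, were whole. Over all genes, 10.3% of counts in wild type and 10.4% in treated were not whole. Values of single myhz and smyhc copies are therefore uncertain, while sums are less touched by such splits. The slow sum lacks smyhc3, so reads shared with that copy could still affect it. The 3 myhz1 copies together measured 6119 CPM (wild type) and 7583 CPM (treated), giving a log2 ratio of 0.31 (0.30 to 0.32). All 7 fast genes together measured 7558 CPM (wild type) and 9366 CPM (treated), giving a log2 ratio of 0.31 (0.30 to 0.32). Without myhz1.1, the other 6 had 0.297 (0.283 to 0.311), just below the interval of the full sum (0.299 to 0.319). A higher sum in the treated library thus remained without the most abundant gene. A further gene, myhz1.1l (ENSDARG00000102414), which its name marks as like myhz1.1 and which was looked up after the values were seen, measured 20.8 CPM (wild type) and 51.4 CPM (treated), giving a log2 ratio of 1.31 (1.14 to 1.48). The estimated counts of myhz1.1l, 397.39 and 1012.95, were not whole either, so its ratio is uncertain in the same way. Adding myhz1.1l left the fast sum at 0.31.

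**Figure D2:**
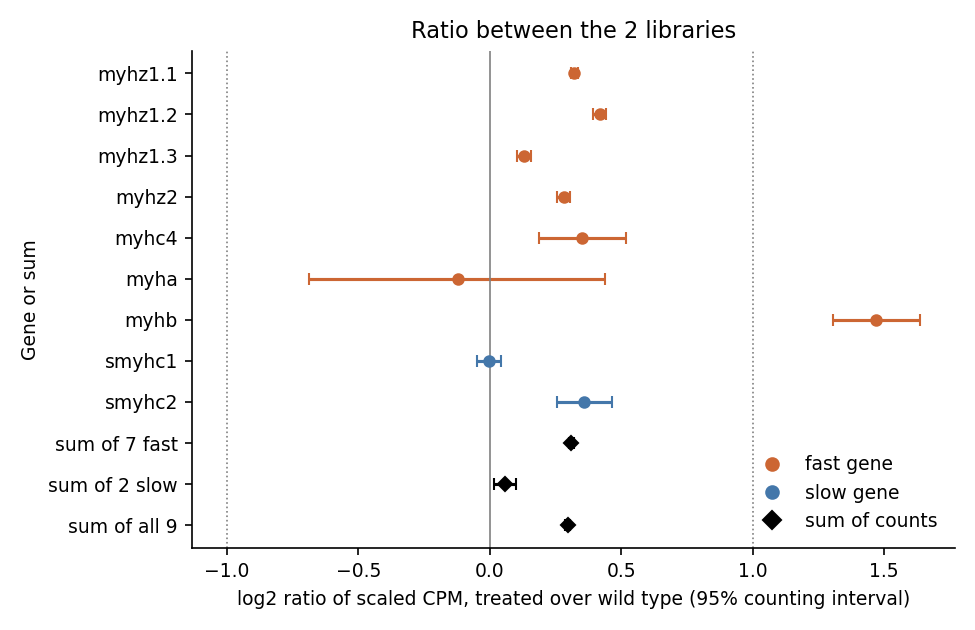
Log2 ratio of scaled CPM, treated over wild type, for the 7 fast genes (orange), the 2 slow genes (blue) and summed counts (black diamonds), with 95% counting intervals; dotted lines mark a fold of 2 in either direction. The gene myhb lies alone beyond a fold of 2 at 1.47, the sum of fast genes lies at 0.31 and that of slow genes at 0.06.

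The less abundant fast genes differed from one another. The gene myhb (ENSDARG00000001993), a fast heavy chain gene outside the tandem group, measured 21.3 CPM (wild type) and 59.2 CPM (treated). That is a log2 ratio of 1.47 (1.31 to 1.64), or 2.77-fold (2.47 to 3.11), from 408 and 1167 counts. Of 6310 genes with 20 to 100 CPM in the higher library, 0.254% had a higher ratio. By abundance among all genes it ranked 7244th in wild type and 2851st in treated. The gene myhc4 (ENSDARG00000035438), which lies between myhz2 and myha in the tandem group, measured 27.5 CPM (wild type) and 35.1 CPM (treated), giving a log2 ratio of 0.35 (0.19 to 0.52). The gene myha (ENSDARG00000095930) was the least abundant at 2.98 CPM (wild type) and 2.74 CPM (treated), from about 57.0 and 54.1 estimated counts. Its log2 ratio of -0.12 (-0.69 to 0.44) was not a detectable difference at this depth. Summed as the late copies, myha and myhb measured 24.3 CPM (wild type) and 61.9 CPM (treated), giving a log2 ratio of 1.35 (1.19 to 1.505). This sum is carried by myhb, and no source used here gives the time at which either gene comes on.

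Both slow genes were lower per length than the 4 myhz genes, and they differed from each other in their ratios. The gene smyhc1 (ENSDARG00000099959), the heavy chain of the early superficial slow fibres, measured 403 CPM (wild type) and 402 CPM (treated). Its log2 ratio was -0.002 (-0.05 to 0.04), which turned to 0.06 (0.02 to 0.11) with total-count scaling. The later slow gene smyhc2 (ENSDARG00000103969) measured 68.8 CPM (wild type) and 88.2 CPM (treated), giving a log2 ratio of 0.36 (0.26 to 0.46). Of the genes with 20 to 100 CPM, 6.26% had a higher ratio than smyhc2. The 2 slow genes together measured 471 CPM (wild type) and 490 CPM (treated), giving a log2 ratio of 0.06 (0.02 to 0.10). With upper-quartile scaling the interval of the slow sum included a ratio of 1. This sum leaves out smyhc3, which stands next to smyhc2 on its chromosome. The gene named MYH7, which may be that copy, had a log2 ratio of -0.31 (-0.56 to -0.05).

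Shares within the family do not depend on how the libraries are scaled. The slow values here cover smyhc1 and smyhc2 only and leave out smyhc3. The slow genes made up 5.87% of the summed counts of the 9 genes in wild type (exact binomial 95% interval 5.75 to 5.99) and 4.98% in treated (4.88 to 5.07). Per 100 fast counts there were 6.24 slow counts in wild type and 5.24 in treated, a log2 change of -0.25. Within the slow pair, smyhc2 made up 14.6% in wild type (13.9 to 15.3) and 17.996% in treated (17.2 to 18.8). The slow share of the family was thus lower in the treated library while smyhc2 took a larger share of the slow counts. These intervals leave out any error from splitting reads between copies, so shares of single copies are less certain than they look. Within the 7 fast genes, myhz1.1 made up 49.6% in wild type (49.3 to 49.8) and 49.98% in treated (49.75 to 50.21). The share of myhz1.2 was 16.6% (16.4 to 16.8) in wild type and 17.9% (17.8 to 18.1) in treated. That of myhz1.3 was 14.8% (14.6 to 14.96) and 13.1% (12.9 to 13.2). The share of myhz2 was 18.4% (18.2 to 18.6) and 17.9996% (17.8 to 18.2). The share of myhb was 0.282% (0.256 to 0.311) and 0.632% (0.596 to 0.669), so its higher ratio added little to the fast total. That of myhc4 was 0.364% (0.334 to 0.397) and 0.375% (0.348 to 0.404), with overlapping intervals.

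**Figure D3:**
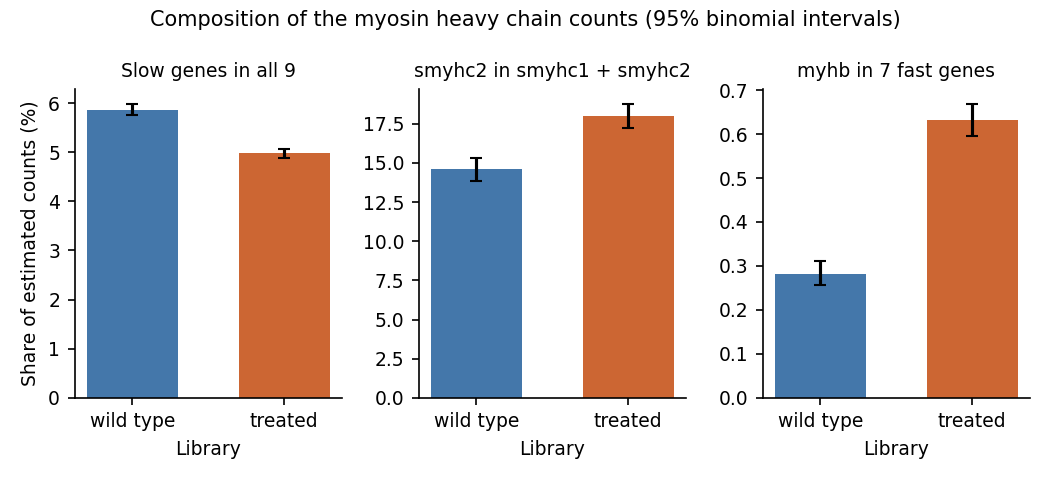
Share of estimated counts in the wild-type (blue) and treated (orange) library, in percent with exact binomial 95% intervals, on axes of different height that start at 0: the 2 slow genes among all 9, smyhc2 within smyhc1 and smyhc2, and myhb among the 7 fast genes. The slow share is lower in the treated library (4.98% against 5.87%) and the shares of smyhc2 and myhb are higher.

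Other genes listed for fast fibres also tended to higher ratios, mostly smaller ones than those of the fast myosins. Of the 40 names in this list 37 were matched to IDs, and the light chain names mylpfa, mylpfb and mylz3 were not. Whether each gene of the list is particular to fast fibres was not tested. Of 39 genes for light chains, thin filament and other parts of fast fibres, 31 had an interval above 1 and 3 one below. Over all genes above the floor, 17.4% had an interval above 1 and 17.3% one below. In abundant genes a small ratio is enough to exclude 1, as for actc1b below. By the 2-fold rule 3 of the 39 genes were higher and 0 lower, beside 2.68% and 0.721% of all genes. The median log2 ratio was 0.18, against -0.002 over all 19829 genes above the floor, and 0.32 over the 7 fast myosin genes. The parvalbumin gene pvalb1, a calcium buffer of fast muscle, measured 3602 CPM (wild type) and 4495 CPM (treated), giving a log2 ratio of 0.32 (0.31 to 0.33). It was chosen after values were seen, and not all abundant genes of the list had such a ratio. The calcium pump gene atp2a1 measured 4222 CPM (wild type) and 4080 CPM (treated), giving a log2 ratio of -0.05 (-0.06 to -0.04). The creatine kinase gene ckmb had 0.01 (-0.01 to 0.02), from 3700 and 3713 CPM. The thin filament gene actc1b, the most abundant of the list, measured 14389 CPM (wild type) and 14860 CPM (treated), giving a log2 ratio of 0.05 (0.04 to 0.05). The highest ratio among those that reached 10 CPM in either library was that of a gene named TNNI2 (ENSDARG00000045592), inhibitory troponin of fast muscle. It measured 3.71 CPM (wild type) and 11.6 CPM (treated), giving a log2 ratio of 1.64 (1.25 to 2.05). This TNNI2 gene reached the limit only in the treated library. The lowest ratio by the same limit was that of the actin gene actc1a, -0.12 (-0.16 to -0.08).

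Of the other slow fibre genes, 18 were above the floor, 8 with an interval above 1 and 2 with one below, and their median was 0.12. The shares over all genes were 17.4% above and 17.3% below. The 2 genes named RYR1 stand in both fibre lists, and without them 6 of 16 slow fibre genes had an interval above 1, with a median of 0.12. The 2 genes named TNNI1 also stand among the cardiomyocyte markers. Whether each gene of the list is particular to slow fibres was not tested. By the 2-fold rule 0 of the 18 were higher and 0 lower, beside 2.68% and 0.721% of all genes. The slow myosin-binding protein gene MYBPC1 had the highest ratio of those that reached 10 CPM in either library, 0.75 (0.47 to 1.04), from 8.63 and 14.6 CPM. MYBPC1 reached that limit only in the treated library. The slow tropomyosin gene tpm3, the most abundant, measured 394 CPM (wild type) and 382 CPM (treated), giving a log2 ratio of -0.04 (-0.09 to 0.001). The calcium pump gene atp2a2a had the lowest by the same limit, -0.24 (-0.41 to -0.08). Summed, these 19 slow fibre genes had a log2 ratio of 0.06 and the 39 fast fibre genes 0.13, beside 0.06 and 0.31 for the slow and fast heavy chains.

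Regulators of muscle genes and partners of myosin mostly stood within a fold of 1.5, where 1 of the former was counted as lower and 0 of either list as higher. At that fold 6.07% of all genes were counted as higher and 2.64% as lower. Among 22 myogenic regulators above the floor, 2 had an interval above 1 and 4 one below, with a median of -0.13. Without regard to fold, 17.4% of all genes had an interval above 1 and 17.3% one below. MYOD1, which commits cells to muscle, measured 12.1 CPM (wild type) and 9.33 CPM (treated), giving a log2 ratio of -0.37 (-0.66 to -0.09). That was the lowest of the list among genes that reached 10 CPM in either library. MYOG, which drives muscle differentiation, measured 65.0 CPM (wild type) and 62.5 CPM (treated), giving a log2 ratio of -0.06 (-0.17 to 0.06). MEF2D was the most abundant and, by the same limit, had the highest ratio, 0.18 (0.08 to 0.29). Among 17 genes for myosin chaperones, thick filament partners and muscle turnover, 7 had an interval above 1 and 0 one below, beside the same shares of all genes. Their median was 0.09. The myosin chaperone gene UNC45B measured 33.3 CPM (wild type) and 38.2 CPM (treated), giving a log2 ratio of 0.20 (0.05 to 0.35). The 2 genes named SMYD1, which encode a methyltransferase needed for thick filament assembly, had 0.08 (-0.01 to 0.16) and -0.06 (-0.17 to 0.05). The titin gene TTN (ENSDARG00000000563), the most abundant, had 0.13 (0.08 to 0.18). The ubiquitin ligase genes trim63a and trim63b had 0.34 (0.13 to 0.55) and -0.15 (-0.38 to 0.07), the highest and lowest of the list among genes that reached 10 CPM.

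**Figure D4:**
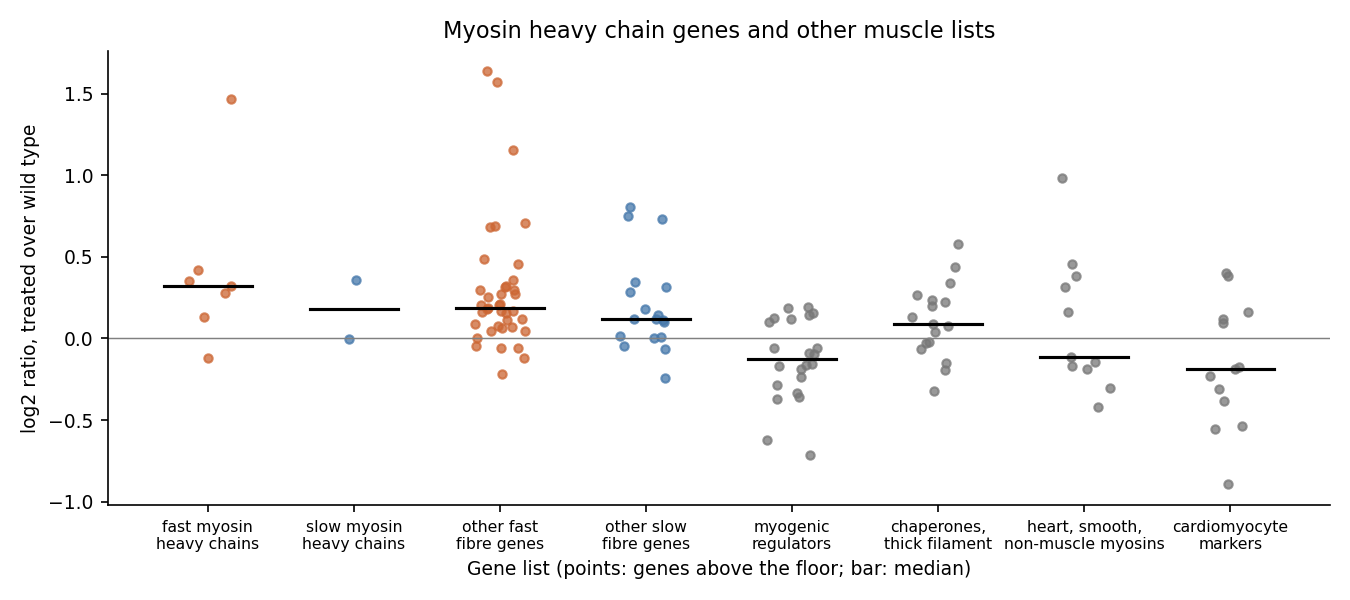
Log2 ratio, treated over wild type, of each gene above the floor (points) and the median (bar) in the fast and slow myosin heavy chains and in other muscle lists. The fast heavy chains have a median of 0.32 and other fast fibre genes 0.18, while myogenic regulators (-0.13) and other myosin heavy chains (-0.12) have medians below 0.

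Heavy chains of heart, smooth muscle and non-muscle cells had ratios on both sides of 1. Of the 14 names in this list 10 were matched to IDs, and vmhc, vmhcl, myh7l and myh13 were not. Of 11 above the floor, 4 had an interval above 1 and 4 one below, with a median of -0.12. The shares over all genes, here and for the marker lists below, were 17.4% above and 17.3% below. The most abundant, a non-muscle gene named MYH9 (ENSDARG00000001014), measured 368 CPM (wild type) and 327 CPM (treated), giving a log2 ratio of -0.17 (-0.22 to -0.12). A second gene named MYH9 (ENSDARG00000063295) had the lowest, -0.42 (-0.49 to -0.36). The smooth muscle gene MYH11 (ENSDARG00000009782) had the highest, 0.98 (0.79 to 1.17), from 17.7 and 34.9 CPM. The names table gives myh6, the name of an atrial chain, to 3 IDs, and the symbol alone does not show which chamber each serves. Of these, ENSDARG00000090637 (myh6) measured 4.40 CPM (wild type) and 3.85 CPM (treated), which was not a detectable difference. ENSDARG00000114031 (MYH6) had a log2 ratio of 0.17 (-0.29 to 0.63), also not detectable. ENSDARG00000079564 (MYH6) measured 30.0 CPM (wild type) and 39.1 CPM (treated), giving a log2 ratio of 0.38 (0.23 to 0.54). The gene named MYH7 (ENSDARG00000079782) measured 14.8 CPM (wild type) and 12.0 CPM (treated), giving a log2 ratio of -0.31 (-0.56 to -0.05). Cardiomyocyte markers, 13 of 17 above the floor, had a median of -0.19, with 2 intervals above 1 and 5 below; among those that reached 10 CPM the highest was myl4 at 0.40 and the lowest nppa, a natriuretic peptide gene, at -0.89. Markers of smooth muscle and fibroblasts, 10 of 12 above the floor, had a median of 0.25 with 6 intervals above 1 and 3 below, acta2 at 1.36 being the highest of those that reached 10 CPM. Their summed level was 7300 CPM (wild type) and 6693 CPM (treated), most of it from the collagen gene col1a1a, which had the lowest ratio by that limit, -0.19. The 19 skeletal muscle markers, most of them also in the fast fibre list, had a median of 0.08 with 14 intervals above 1 and 2 below. Summed, they measured 40067 CPM (wild type) and 43277 CPM (treated), giving a log2 ratio of 0.11. Whether these marker levels have a part in the myosin values was not tested.

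**Figure D5:**
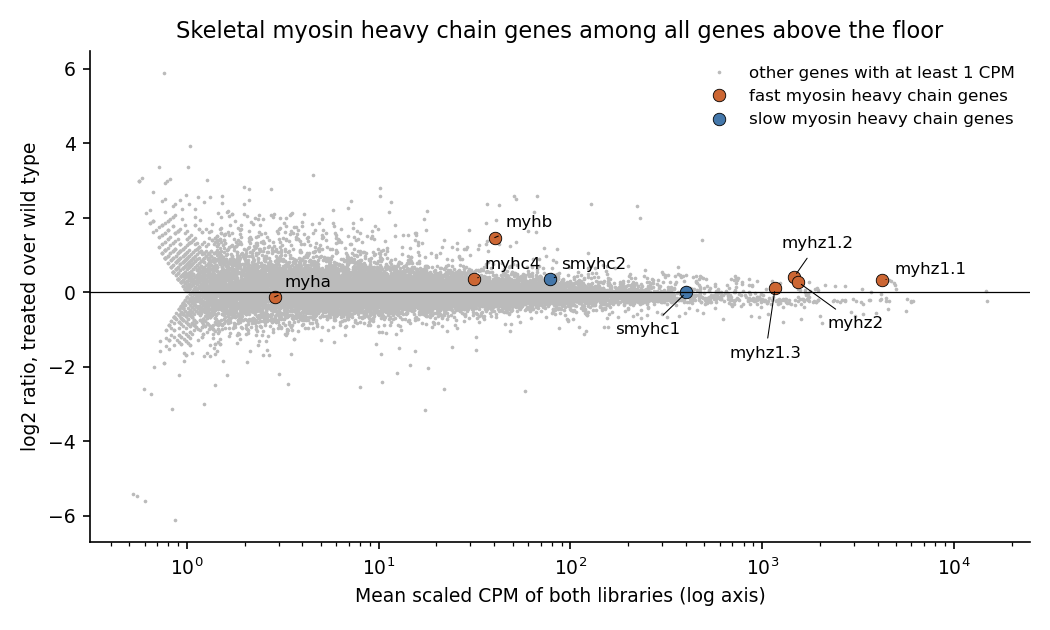
Log2 ratio, treated over wild type, against the mean scaled CPM of both libraries (log axis) for all genes that reached 1 CPM in either library (grey), with the fast (orange) and slow (blue) myosin heavy chain genes marked. The gene myhb lies above nearly all genes of its level, the 4 myhz genes lie above 0 among the abundant genes and smyhc1 lies at 0.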

How the data were processed

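The deposited table holds estimated counts (expected counts, not normalised) and FPKM for both libraries, per the file headers. Counts of all 26597 genes were identical in the single-library files. FPKM relates the authors' counts to gene length and sequencing depth. The submitters' processing notes name build danRer11 and StringTie 1.3.1, HISAT2, Bowtie2 2.2.8, fastp 0.18.0, edgeR and DESeq2, without their roles; settings and annotation: not given in the sources used here.

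Counts were rounded and scaled by TMM factors of edgeR 4.0.16 (R 4.3.3). Log2 ratios used a prior of 0.5 counts, and 95% intervals were exact (Clopper-Pearson, from the split of both libraries' counts). The floor was 1 CPM in either library. The script was checked on simulated counts. Python 3.11.15 with scipy 1.17.1 was used. Members and lists were chosen with earlier results of these data known. List names were matched ignoring case (91 of 154) and, if absent, without the copy suffix (143 in all); all IDs of a name entered. Named genes were the members, a fixed set, and the most abundant, highest and lowest of each list that reached 10 CPM in either library. The genes pvalb1, atp2a1, ckmb, acta2, myl4 and nppa were described with their lists. Of the named genes, pvalb1, atp2a1, ckmb and myhz1.1l were chosen after values were seen. The depth bands of 20 and 100 CPM were set after seeing the members' levels. A count of 3 amounts to 0.157 and 0.152 CPM. Protein sequences and the planned identity between copies are not used here.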

Additional observations from a re-analysis of the deposited data

How the results depend on the processing

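No paired analysis was possible because there was only 1 library per group. Total-count scaling moved every log2 ratio by 0.063, to 0.37 for the fast sum, 0.12 for the slow sum, 0.37 for the myhz sum and 0.36 for all 9 genes; FPKM with a pseudocount of 0.5 gave 0.37, 0.12, 0.37 and 0.36. Upper-quartile factors gave 0.29 for the fast, 0.29 for the myhz and 0.28 for all 9 genes. Without myhz1.1 the fast sum had 0.297 and the sum of the others of all 9 had 0.272. Each lay below the counting interval of its full sum, 0.299 to 0.319 and 0.286 to 0.305. DESeq2 1.42.0 median-of-ratios factors, a prior of 2 counts and, added after seeing the data, myhz1.1l left the sums within their counting intervals. The slow share of FPKM lay within the interval of the share of counts in each library. The slow-to-fast log2 change was -0.25 in counts and -0.25 in FPKM, and no interval was computed for it. The count of members at least 2-fold higher, 1, became 0 at a fold of 4. It stayed at 1 with no floor, a floor of 5 CPM, a fold of 1.5, no counting interval and each scaling, and the count of lower members stayed at 0. Across the settings myhb ranged from 1.41 to 1.53, and smyhc1 crossed 0, from -0.02 to 0.06. Depth limits myha most. None of these settings stands in for a replicate.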
